A study of Mus musculus with 6 samples.

Results

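The Notch receptors (*Notch1*, *Notch2*, *Notch3* and *Notch4*), their ligands (*Dll1*, *Dll3*, *Dll4*, *Jag1* and *Jag2*) and the target gene *Hes1* were examined in undifferentiated mouse ESCs (mESCs) with and without *Alkbh1*. These 10 genes, of 15357 named in the deposited table, were chosen by name. They were represented by 17 of its 33142 probe sets, a probe set being a group of short array probes whose signals give 1 value. All 17 were found by gene ID, and 12 of them also carried the symbol of the gene. *Hes1* was among the other 5, since its probe set carried no symbol. *Notch4*, *Dll1*, *Dll3* and *Hes1* had 1 probe set each, and the other 6 genes had several.

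Gene expression was measured on 6 Affymetrix mouse whole-genome arrays, 3 of wild-type (WT) and 3 of *Alkbh1-/-* mESCs. *Alkbh1* encodes a member of the AlkB dioxygenase family. Both lines were of C57BL/6 background, at passage 8 and day 0, undifferentiated and untreated. Both came from embryos of 1 litter from heterozygous parents, and were kept with leukemia inhibitory factor (LIF), a cytokine that holds mESCs undifferentiated, on irradiated CF-1 mouse embryonic fibroblasts. The sources used here name neither the part of *Alkbh1* that was removed nor separate cultures behind the 3 arrays of a line. Each genotype was 1 line as far as the array names show, so line and genotype cannot be told apart.

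Notch signaling passes between touching cells. A ligand on one cell binds a receptor on its neighbor, the receptor is cut by ADAM proteases and then by gamma-secretase, and the freed intracellular domain enters the nucleus, where it joins the DNA-binding protein RBPJ and switches on targets such as the Hes and Hey repressors. In mESCs the pathway is best known for its part in the choice of a neural fate once differentiation begins.

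The deposited values set what could be compared. For every probe set there was the authors' mean log2 value over all 6 arrays. A mean of each genotype was present for 4326 rows that the authors had selected by a test of the genotype difference. It was a geometric mean of intensities, and 4232 of the rows could be tied to a single probe set. Only 7320 probe sets passed a filter set before that test, so the shares of all probe sets given below also reflect the filter. A member without genotype means therefore had no known difference, and its absence from the selection does not show that the lines had equal levels. No value of a single array was used, so the differences have no replicate spread and no test. The selection also fixed that no difference lay near 0, the smallest being 0.37 on the log2 scale (1.29-fold) and the median size 0.67.

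Genotype means existed for 4 of the 17 Notch probe sets (23.5%), against 12.8% of all probe sets in the table. The 4 belonged to 3 genes, the receptor *Notch3* and the ligands *Dll3* and *Jag2*. *Jag2* had them only at its dimmer probe set. All 4 were lower in *Alkbh1-/-* mESCs, with a median log2 difference of -0.62. Both *Notch3* probe sets read 1 gene, so the 4 are not separate falls. Among all 4232 probe sets with genotype means, 2053 were lower and 2179 were higher at any size. By a linear fold of 1.5 or more, 2 of the 4 were lower (*Dll3* and *Jag2*) and 0 were higher. Of all 4232 probe sets with genotype means, 30.3% were lower and 32.8% were higher by that fold. For the other 7 genes, and for 13 of the 17 probe sets, no difference could be given.

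The sequences upstream of these 3 genes are shown because they were the members with genotype means at any probe set. Each is the 250 bases before the gene start in RefSeq (build GRCm38.p6), read 5′ to 3′ on the strand of the gene, which is the minus strand for all 3. Capitals mark the N-box, searched on both strands as CACNAG, a motif that Hes repressors can bind. *Notch3* lies at chr17:32166891-32167140, *Dll3* at chr7:28301786-28302035 and *Jag2* at chr12:112929496-112929745.
Notch3: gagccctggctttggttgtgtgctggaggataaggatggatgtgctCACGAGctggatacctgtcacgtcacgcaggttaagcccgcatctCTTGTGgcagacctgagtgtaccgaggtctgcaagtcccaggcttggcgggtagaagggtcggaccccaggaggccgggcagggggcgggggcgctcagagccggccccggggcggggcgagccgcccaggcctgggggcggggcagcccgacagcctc
Dll3: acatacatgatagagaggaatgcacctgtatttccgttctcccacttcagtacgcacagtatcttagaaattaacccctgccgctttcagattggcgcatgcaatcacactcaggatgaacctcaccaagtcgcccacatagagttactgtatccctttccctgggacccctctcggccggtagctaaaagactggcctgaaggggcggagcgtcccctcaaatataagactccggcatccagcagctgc
Jag2: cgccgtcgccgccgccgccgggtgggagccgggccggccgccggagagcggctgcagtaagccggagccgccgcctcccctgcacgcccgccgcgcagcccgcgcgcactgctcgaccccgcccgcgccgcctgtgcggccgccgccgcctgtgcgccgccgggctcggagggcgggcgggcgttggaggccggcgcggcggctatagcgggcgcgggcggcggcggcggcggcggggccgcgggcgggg

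The *Notch3* window held 2 N-boxes, whose first bases lay 204 and 159 bases before the gene start, and the *Dll3* and *Jag2* windows held 0. The G and C content was 68.8% for *Notch3*, 52% for *Dll3* and 87.2% for *Jag2*. Upstream windows were given for 9 of the 10 genes, *Dll1* with 2 of them, and *Hes1* was not matched. An N-box was found in 4 of these 10 windows (*Notch1*, *Notch2*, *Notch3* and *Dll4*), against 36.7% of 32851 mouse windows. The core of the RBPJ site, TGGGAA on either strand, was in 0 of the 10 windows and in 21.6% of all windows. These letters describe the windows only and mark no binding site.

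Among the receptors, which are cut to free the signaling domain, *Notch3* was the one with a known genotype difference. Its brightest probe set (1421965_s_at) had an authors' mean intensity of 352 in WT and 253 in *Alkbh1-/-* mESCs. On the log2 scale these were 8.46 and 7.98, a difference of -0.48 (1.4-fold lower). The second *Notch3* probe set (1421964_at) read a dimmer signal, 50.3 in WT and 35.6 in *Alkbh1-/-*, with a log2 difference of -0.50 (1.41-fold lower). Both probe sets thus had a lower mean in *Alkbh1-/-* mESCs, by nearly the same fold. A name ending in s_at marks probes that may also read related transcripts.

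The other receptors are described by brightness over both genotypes. The brightest *Notch1* probe set (1418634_at) had a mean log2 value of 8.37 over the 6 arrays, percentile 74.8 of all probe sets, and the other (1418633_at) had 6.82. *Notch2* had 7.78 at its brightest (1455556_at, percentile 68.4) and 4.18 at the other (1451889_at), which lay at percentile 11.4. *Notch4*, a receptor best known from endothelium, had 6.72 (1449146_at, percentile 55.4). The *Notch1*, *Notch2* and *Notch4* probe sets had no genotype means. Brightness depends on the probes as well as on the RNA, and it therefore gives no order of RNA levels between genes.

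**Figure D1:**
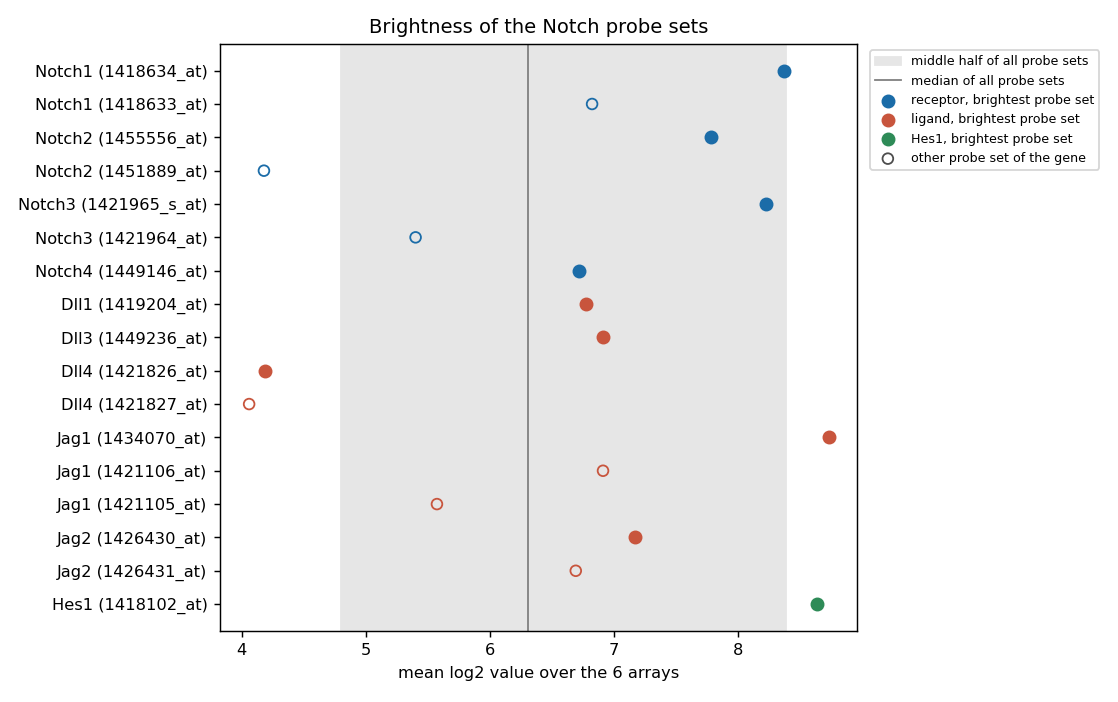
The horizontal axis gives the authors' mean log2 value over the 6 arrays, with 1 point for each of the 17 Notch probe sets, filled for the brightest of a gene and open for the others. The shaded band holds the middle of all 33142 probe sets, from the 25th percentile (4.80) to the 75th (8.38), and the line is their median (6.31). Of the 10 filled points 9 lie to the right of the median, and that of *Dll4* lies left of the band.

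The ligands of the Delta type are encoded by *Dll1*, *Dll3* and *Dll4*. *Dll3* differs from the others in that its protein stays largely inside the cell and does not activate receptors on neighbors. Its single probe set (1449236_at) had an authors' mean intensity of 161 in WT and 89.8 in *Alkbh1-/-* mESCs. The log2 values were 7.33 and 6.49, a difference of -0.84 (1.79-fold lower), the largest in size among the 4 Notch probe sets with genotype means. *Dll1*, an activating ligand, had a mean log2 value of 6.78 over the 6 arrays (1419204_at, percentile 56.2). *Dll4*, a ligand of vascular sprouting, was dim at both probe sets, with 4.19 (1421826_at, percentile 11.6) and 4.06 (1421827_at, percentile 8.35).

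The ligands of the Jagged type are encoded by *Jag1* and *Jag2*. The dimmer *Jag2* probe set (1426431_at) had an authors' mean intensity of 134 in WT and 79.9 in *Alkbh1-/-* mESCs. On the log2 scale the means were 7.06 and 6.32, a difference of -0.74 (1.68-fold lower). The brighter *Jag2* probe set (1426430_at, mean log2 value 7.17) had no genotype means. By the rule that takes the brightest probe set for a gene, *Jag2* therefore had no known difference, and the value rests on 1 of its 2 probe sets. The brightest *Jag1* probe set had 8.73 (1434070_at, percentile 78.8), and its other probe sets had 6.91 and 5.57. None of the 3 *Jag1* probe sets had genotype means.

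*Hes1* encodes a repressor switched on by Notch, and by other pathways in mESCs. Its probe set (1418102_at) had a mean log2 value of 8.64, at percentile 77.9, and no genotype means. Of the 10 genes, 9 had a brightest probe set at or above the median of the table (6.31). When each gene was ranked among the brightest probe sets of all 15357 named genes, 5 of the 10 were at or above the median.

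Of 49 further genes of the pathway, 46 were in the table, with 90 probe sets. Genotype means existed for 14 of the 90 (15.6%, against 12.8% of all probe sets), from 10 genes. Of these genes, 5 were lower and 5 were higher in *Alkbh1-/-* mESCs. By a linear fold of 1.5 or more, 3 of the 14 probe sets were lower and 4 were higher. By that fold 30.3% of all probe sets with genotype means were lower and 32.8% were higher. The log2 differences of the 14 ran from -0.90 to 1.22 with a median of 0.50. Taken by role, the listed genes of cleavage were higher at 3 of 3 probe sets with genotype means, from 2 genes. Those of inhibition were lower at 2 of 2, from 2 genes. Those of the Hes and Hey family were lower at 2 of 2, both of *Hes6* (2 of 9 probe sets, 22.2%). The other roles were mixed or had no genotype means. Genes of ligand endocytosis and other ligands were lower at 1 probe set and higher at 3. For the nuclear complex and corepressors, 1 probe set was lower and 2 were higher, and receptor glycosylation had no genotype means. Probe sets of 1 gene are not separate results. Of all 4232 probe sets with genotype means, 2053 were lower and 2179 were higher.

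Among genes of ligands and their handling, *Dner*, an atypical Notch ligand of neurons, had an authors' mean intensity of 46.9 in WT and 109 in *Alkbh1-/-* mESCs at its brightest probe set (1423671_at). This log2 difference of 1.22 (2.32-fold higher) was the largest of the pathway list, and the second *Dner* probe set (1456379_x_at) had 1.11. *Neurl1a* and *Neurl1b* encode Neuralized-type ubiquitin ligases, a family that acts in ligand endocytosis. The log2 difference was 0.60 at a dimmer *Neurl1a* probe set (1456854_at) and -0.42 at the brightest of *Neurl1b* (1435564_at). The brightest *Neurl1a* probe set had no genotype means, and neither did *Mib1*, *Mib2*, *Dlk1* or *Dlk2*.

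Of the 9 genes of receptor cleavage 2 had genotype means (3 of 21 probe sets, 14.3%, near the 12.8% of all), and both were higher in *Alkbh1-/-* mESCs. *Adam10*, the protease of the first ligand-dependent cut, had an authors' mean intensity of 372 in WT and 532 in *Alkbh1-/-* mESCs (1428103_at), a log2 difference of 0.51, and 0.56 at a second probe set. *Psen2*, a catalytic subunit of gamma-secretase, had intensities of 119 and 167, a log2 difference of 0.49 (1425869_a_at). Further, dimmer probe sets of both genes had no genotype means. The subunit genes *Ncstn*, *Aph1a*, *Aph1b* and *Psenen* had no genotype means. None of the 5 genes of receptor glycosylation, such as the fringe genes *Lfng*, *Mfng* and *Rfng*, had genotype means.

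In the nucleus, *Rbpj*, the partner of the receptor domain, was bright, with a mean log2 value of 10.85 over the 6 arrays and no genotype means. The corepressor gene *Tle3* had intensities of 732 in WT and 1088 in *Alkbh1-/-* mESCs (1419655_at), a log2 difference of 0.57, and 0.64 at another probe set. The remaining *Tle3* probe sets had no genotype means. Its relative *Tle1* had -0.52 at a dimmer probe set (1434033_at) and no genotype means at its brightest. These corepressors also serve other pathways.

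Of 9 genes of inhibition and turnover 2 had genotype means (2 of 17 probe sets, 11.8%, near the 12.8% of all), and both were lower in *Alkbh1-/-* mESCs. *Nrarp*, a Notch target whose product limits the pathway, had intensities of 84.2 and 58.6, a log2 difference of -0.52 (1417985_at). *Dtx4*, of the Deltex ubiquitin ligase family, had 153 and 96.6, a difference of -0.66 (1436545_at). The second probe sets of *Nrarp* (1417986_at, mean log2 value 6.02) and *Dtx4* (1455711_at, 4.64) had no genotype means. *Hes6*, a Hes family gene whose product can oppose HES1, had 356 and 191 at its brightest probe set (1436050_x_at), a difference of -0.90, and a second probe set had -0.79. The Hes and Hey genes *Hes2*, *Hes3*, *Hes5*, *Hes7*, *Hey1* and *Heyl* had no genotype means.

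**Figure D2:**
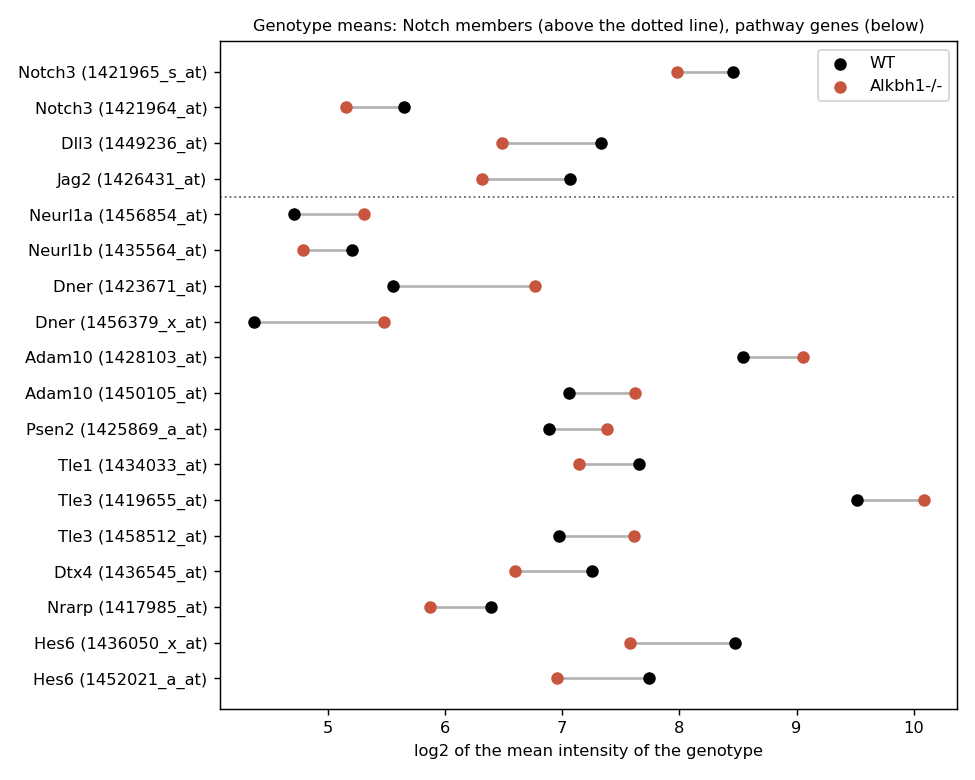
The horizontal axis gives the log2 of the authors' mean intensity in WT (black) and *Alkbh1-/-* mESCs (red), 1 line for each probe set with both means, with no error because the values are pooled. Above the dotted line all 4 Notch probe sets have the red point on the left. Below it, 6 probe sets of pathway genes are lower and 8 are higher in *Alkbh1-/-*.

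The labels were checked on the targeted gene and on cell markers. *Alkbh1* had an authors' mean intensity of 761 in WT and 25.7 in *Alkbh1-/-* mESCs at its brightest probe set, a log2 difference of -4.89. The second *Alkbh1* probe set (1438681_at) had 120 and 34.6, a difference of -1.79. Defining mESC genes were bright, with mean log2 values of 12.64 for *Pou5f1*, 12.66 for *Sox2* and 14.49 for *Dppa5a*. The Y-linked *Eif2s3y*, *Ddx3y* and *Uty* were lower in *Alkbh1-/-* mESCs at 7 probe sets, with log2 differences from -5.65 to -2.33, and *Kdm5d* had no genotype means. Their log2 means in *Alkbh1-/-* mESCs, 2.67 to 4.20, were below the 25th percentile of the table (4.80), so the sizes depend on the background signal. At the brightest probe sets the WT and *Alkbh1-/-* intensities were 751 and 14.9 for *Eif2s3y*, 412 and 14.1 for *Ddx3y*, and 72.5 and 11.2 for *Uty*. The lines thus also differed in the signal of Y-linked genes. Whether they differed in sex or Y content was not tested. The difference in Y-linked signal and the genotype cannot be told apart.

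Markers of other cells were read from the same means. Of 16 fibroblast genes, chosen for the feeder layer, 9 had genotype means (*Col1a1*, *Col1a2*, *Col3a1*, *Col5a2*, *Col6a2*, *Thy1*, *Prrx1*, *Fbn1* and *Lox*), 7 of them at their brightest probe set. The brightest probe sets of *Col1a2* (mean log2 value 11.82) and *Prrx1* (7.23) had none. Genotype means existed for 13 of the 34 fibroblast probe sets (38.2%, against 12.8% of all), and all 13 were lower in *Alkbh1-/-* mESCs, with log2 differences from -1.06 to -0.52 and a median of -0.94. The summed intensity of these 13 was 9183 in WT and 4815 in *Alkbh1-/-*. The sum covers only probe sets in the authors' selection, and leaves out bright ones such as *Sparc* (mean log2 value 11.55). Against the Notch values, 13 of the 13 were further below 0 than *Notch3* (-0.48 at its brightest), 10 of 13 than *Dll3* (-0.84) and 10 of 13 than *Jag2* (-0.74). *Thy1* (-0.52) and both *Col6a2* probe sets (-0.59 and -0.53) were the 3 nearer to 0 than *Dll3* and *Jag2*. The genes *Lum*, *Dcn*, *Postn*, *Pdgfra*, *Pdgfrb*, *Twist1* and *Sparc* had no genotype means at any probe set. Feeder cells can express Notch genes too, and the part of feeder RNA in the lower *Notch3*, *Dll3* and *Jag2* values was not tested. In such bulk samples, fewer cells of a type and less RNA per cell cannot be told apart.

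Of 10 listed stem cell genes, 6 had genotype means, and these were mostly higher in *Alkbh1-/-* mESCs. *Nanog*, *Zfp42*, *Esrrb*, *Klf4* and *Tcl1* were higher and *Utf1* was lower. The median log2 difference was 0.57 over their 10 probe sets (66.7% of the 15 of the list, against 12.8% of all). *Pou5f1*, *Sox2*, *Dppa5a* and *Tdgf1* had no genotype means, so the values used here gave no difference for them. The authors reported higher *Oct4* (*Pou5f1*) and *Sox2* transcripts in undifferentiated *Alkbh1-/-* mESCs, by quantitative PCR and on the arrays. The summed intensity of the 10 selected probe sets was 16939 in WT and 28655 in *Alkbh1-/-* mESCs. That sum leaves out the bright *Pou5f1*, *Sox2*, *Dppa5a* and *Tdgf1*, with mean log2 values of 12.64 to 14.49. Of 6 neural genes 5 were in the table. The proneural *Neurod1* had a log2 difference of -1.41 at its brightest probe set. *Sox1* had 1.27 at a probe set among the dimmest of the table (percentile 5.21) and no genotype means at its brightest, and *Nes*, *Pax6* and *Tubb3* had none. The endoderm genes *Gata4*, *Gata6*, *Sox17* and *Foxa2* and the endothelial genes *Kdr* and *Tek* had no genotype means, and the mean log2 values of their probe sets were 3.87 to 5.31 and 4.99 to 6.15. The part of any of these cell states in the Notch values was not tested.

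**Figure D3:**
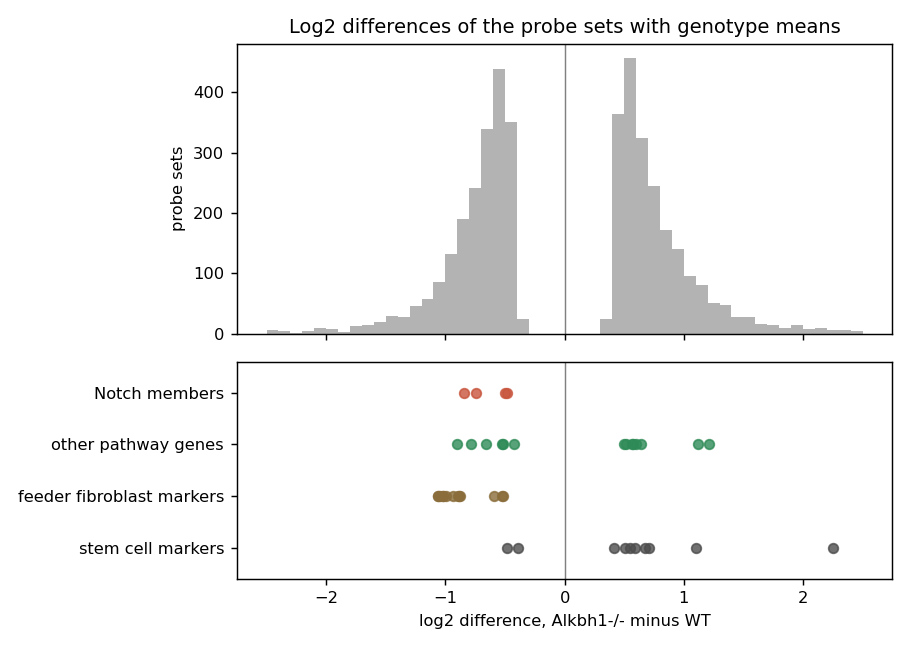
The upper panel counts the probe sets with genotype means by log2 difference, *Alkbh1-/-* minus WT, with 49 probe sets beyond 2.5 in size not drawn. The lower panel shows the Notch members, the other pathway genes, the fibroblast markers and the stem cell markers on the same axis, 1 point for each probe set. The gap around 0 comes from the authors' selection, and the 4 Notch points (-0.84 to -0.48) and all 13 fibroblast points (-1.06 to -0.52) lie left of it.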

How the data were processed

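RNA of 3 WT and 3 *Alkbh1-/-* arrays was measured. The authors normalized the signals by RMA (robust microarray analysis) and deposited mean log2 values over all arrays for 33142 probe sets. They also deposited geometric mean intensity values of each genotype for 4326 rows. These rows were listed by a test at a nominal level of 0.05 after 7320 probe sets passed a filter. Every mean intensity of a genotype given here is such a geometric mean, and the summed intensities are sums of them. The labels of that table name the WT mean by another array code, which the authors' note corrects. Both tables also hold the authors' comparisons (fold, statistics and p-values), which were not used. A build was not given in the sources used here.

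The identifiers in the rows of genotype means did not go with the values. Each row was therefore matched to the probe set whose mean log2 value equaled the average of its 2 log2 genotype means within 1e-06, unique in both directions. This gave 4232 rows, while 65 matched no probe set and 29 several, and 0 Notch probe sets were among the latter. The limit was chosen after counting matches at 6 limits, of which it gave the most (3567 at 1e-07 and 3895 at 1e-05). Pairs of probe sets of 1 gene had differences of the same sign in 1515 of 1518 cases (99.8%), against 757 of 1533 (49.4%) by the identifiers, and only 8 rows carried their own identifier.

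Probe sets were named through RefSeq by gene ID, accession, symbol and older symbol (28205 of 33142). A gene was given by its brightest probe set. The text names all 10 members, *Alkbh1* and each listed pathway or marker gene with genotype means, with further listed genes for context. The members and lists were chosen with earlier results of these data known, and the Y-linked genes after their values were seen. Of 4 motifs searched upstream, GTGGGAA and CACGTG were also in 0 member windows (5.42% and 6.02% of all windows), and the N-box was put in capitals after the others gave no match. Planned limma fits could not be run on pooled means. Differences were computed with Python 3.11.15, pandas 2.3.3 and NumPy 2.4.6. The number of arrays limits the precision.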

Additional observations from a re-analysis of the deposited data

How the results depend on the processing

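The count of Notch probe sets lower by 1.5-fold or more (2) was 0 at a linear fold of 2, 4 with no fold threshold, 4 after centring on the median of the matched rows and 1 by the identifier in the row. It was 2 with a tolerance 10 times wider and with the symbol column alone, the latter chosen after seeing the data. By the row identifier the log2 differences of *Dll3* and *Jag2* reversed to 0.70 and 0.78, and that of *Notch3* was -1.64. Those identifiers gave the same sign for 49.4% of probe set pairs of 1 gene. Centring gave -0.90 for *Notch3*, -1.26 for *Dll3* and -1.16 for *Jag2*, but the median it subtracts (0.42) comes from a selection with no values near 0. The mean over the probe sets of *Notch3* gave -0.49. The number of genes at or above the table median (9) was 8 by the median over probe sets, 7 by the symbol column alone and 5 among the brightest probe sets of genes. No paired analysis was possible because the tables used here hold pooled means and no single arrays. The values used here were pooled means and no single arrays, so leaving out each array in turn was not run. The pooled means give no error, and a dim probe set such as those of *Dll4* may have been unable to show a difference.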
